A study of Mus musculus with 12 samples.

Results

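The genes described here are 10 imprinted growth genes, chosen by their symbols from the 25093 genes of the count table. They are H19 and Igf2, the 4 genes Dlk1, Meg3, Rian and Mirg of the Dlk1-Dio3 domain, and Peg3, Plagl1, Mest and Grb10. All 10 were counted in every library used. The study asked what the transcription factor GLI3, an effector of the Hedgehog pathway, does in satellite cells, the stem cells of skeletal muscle. Satellite cells were sorted from mice that carry Pax7-CreERT2 and R26R-YFP on a mixed 129SV and C57BL/6 background, either with Gli3fl/fl, giving Gli3Δ/Δ cells, or with Gli3+/+ as controls. Mice of both genotypes were 3 to 4 months old and received tamoxifen, so the controls also carry the active Cre, which is driven by the satellite cell gene Pax7. Quiescent satellite cells (QSCs) came from uninjured hindlimbs, with 3 libraries per genotype, each pooling 2 to 3 mice. Activated satellite cells (ASCs), sorted 3 days after cardiotoxin injury, make up the other 6 of the 12 samples, but their counts could not be tied to a labelled sample and their libraries are not analysed here. The comparison is therefore Gli3Δ/Δ against Gli3+/+ QSCs, 3 libraries against 3. Polyadenylated RNA was sequenced with a protocol that keeps the strand, and counts are per gene, so the maternal and paternal copies were not told apart.

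At an imprinted gene the copy from one parent is transcribed and the other is kept silent, by DNA methylation set in the germ cells at control regions that often serve several genes. Paternally expressed genes such as Igf2, Dlk1, Peg3, Plagl1 and Mest are known mainly as promoters of fetal and placental growth or as regulators of progenitor cells, and maternally expressed genes such as H19, Meg3 and, in most tissues, Grb10 are often found to hold growth back. H19 and Igf2 share a control region on the distal end of their chromosome, and the Dlk1-Dio3 domain expresses proteins from the paternal copy and long noncoding RNAs, small nucleolar RNAs and a large cluster of microRNAs from the maternal copy. Many of these genes fall after birth in most organs and stay active in some adult stem cells.

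The lowest count of any of the 10 genes in a library was 250, that of Dlk1. The 6 QSC libraries held 39556784 to 65750131 estimated counts. Gli3 itself was at 11.2, 9.71 and 9.75 CPM (counts scaled to a common library size, after TMM normalization) in Gli3+/+ and 9.54, 10.5 and 6.25 CPM in Gli3Δ/Δ libraries, and since a count over the whole gene also holds exons outside the floxed part, it does not check the genotype. All 11 myogenic and quiescence markers, among them Pax7 and Calcr, had a mean of at least 1 CPM. Their sum was 4967 to 7521 CPM in Gli3+/+ and 5289 to 5645 CPM in Gli3Δ/Δ libraries. Of the other cell types, Schwann cell markers summed to 68.2 to 99.9 CPM in Gli3+/+ and 32.3 to 47.7 CPM in Gli3Δ/Δ libraries, with all 4 markers lower and not overlapping. Fibro-adipogenic markers summed to 2502 to 4511 CPM in Gli3+/+ and 3924 to 4169 CPM in Gli3Δ/Δ libraries. Col3a1 carried most of this sum at a mean of 2999.5 CPM, followed by Dpt at 465, Col1a1 at 164 and Dcn at 85.9 CPM. Pdgfra was at 2.15, Lum at 2.67 and Ly6a, which encodes the SCA1 antigen that the sort selected against, at 5.88 CPM. Mural cell markers summed to 148 to 428 CPM in Gli3+/+ and 187 to 218 CPM in Gli3Δ/Δ libraries. None of these markers was at 0 in all libraries, and the part of other cell types in the values below was not tested.

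Several of these genes are also hosts of microRNAs, and their sequences show what the transcripts carry besides their own function. Of the 10 genes, 6 enclosed annotated microRNA hairpins on their own strand, 21 in all. Mirg held 14 of them, Rian held 3, and H19, Igf2, Meg3 and Mest held 1 each. The hairpins of H19 and Meg3 and 4 of those of Mirg lay within an annotated exon. The mature sequences below, from RefSeq on GRCm38.p6, are those of the single-hairpin hosts, the 5p arms of Rian, and the only pair among the 40 mature sequences of these hosts that shares a seed, which lies in Mirg. They are written 5′ to 3′ with the seed, bases 2 to 8, in capitals.
miR-675-5p (H19, exon): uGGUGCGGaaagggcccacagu
miR-675-3p (H19, exon): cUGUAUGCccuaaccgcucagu
miR-483-5p (Igf2): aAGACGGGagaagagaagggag
miR-483-3p (Igf2): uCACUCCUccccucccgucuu
miR-770-5p (Meg3, exon): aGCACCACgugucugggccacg
miR-770-3p (Meg3, exon): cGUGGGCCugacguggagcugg
miR-335-5p (Mest): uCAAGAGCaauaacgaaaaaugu
miR-335-3p (Mest): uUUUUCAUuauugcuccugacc
miR-341-5p (Rian): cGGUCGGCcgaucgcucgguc
miR-1188-5p (Rian): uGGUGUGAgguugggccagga
miR-370-5p (Rian): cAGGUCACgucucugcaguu
miR-453 (Mirg): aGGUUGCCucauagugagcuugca
miR-496a-5p (Mirg): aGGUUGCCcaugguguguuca
The seed shared by miR-453 and miR-496a-5p is GGUUGCC. Over the whole stretch from Dlk1 to the end of Mirg, 54 hairpins on the plus strand gave 101 mature sequences, of which 18 shared a seed with another, over 9 seeds. The libraries were made from polyadenylated RNA, so mature microRNAs were not measured, and the counts below are those of the host genes.

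A promoter is shown for Meg3, because it was the gene of the 10 whose libraries did not overlap between genotypes, as was found for 13% of all genes tested. GLI factors bind a sequence whose consensus is GACCACCCA. That consensus, searched on both strands, was in none of the 16 promoter windows listed for 9 of the 10 genes and in 0.253% of the 32851 windows of all genes, each running from 250 bases before to 50 bases after a start. Its first 8 letters, GACCACCC, were in 3 of the 16 windows, both windows of Meg3 and one of the Grb10 windows, and in 0.807% of all windows. Both searches were chosen after the sequences were seen, and the shorter one holds every match of the longer. The window at the first Meg3 start is chr12:109540746-109541045 on the plus strand of GRCm38.p6, with 13 CpG dinucleotides against a median of 7 over all windows. In the sequence below the capitals mark TGACGTCA, the cyclic AMP response element, which begins 57 bases before the start, and GACCACCC, which begins 47 bases before it.
Meg3 promoter: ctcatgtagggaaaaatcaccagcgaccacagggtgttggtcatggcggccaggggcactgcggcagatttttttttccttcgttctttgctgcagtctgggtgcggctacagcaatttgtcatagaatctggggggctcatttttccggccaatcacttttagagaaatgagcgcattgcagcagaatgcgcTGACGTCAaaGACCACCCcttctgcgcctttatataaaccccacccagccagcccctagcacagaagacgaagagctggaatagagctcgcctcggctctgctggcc
TGACGTCA was in 1.79% of all windows and, of these genes, in those of Meg3 and Peg3. A match of letters is a description of the window and not a binding site.

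Of the 10 imprinted growth genes, 4 were among the 200 genes with the highest mean CPM in QSCs. By mean CPM over the 6 libraries, Peg3 ranked 26 among the 25093 genes, Meg3 ranked 38, Rian 124 and Grb10 175, while Igf2 ranked 1288, Plagl1 2042, H19 3451, Mirg 4944, Mest 6615 and Dlk1 9642. The 10 genes together took 0.562% to 0.717% of the scaled counts of a library. Levels can be compared between genes only per length, and CPM per kilobase of merged exons in Gli3+/+ QSCs fell from 198 ± 46.4 for Peg3 (SD, n = 3 libraries, as for the other Gli3+/+ means of this order) to 1.56 ± 0.511 for Dlk1. Between them came Meg3 at 95.5 ± 13.9, Grb10 at 69.3 ± 18.2, Rian at 40.6 ± 11.5, Igf2 at 24.97 ± 2.63, H19 at 22.5 ± 4.98, Plagl1 at 13.9 ± 2.54, Mest at 6.59 ± 1.83 and Mirg at 5.41 ± 2.10 CPM per kilobase. Of the 9 pairs of neighbours in this order, Grb10 and Rian, Igf2 and H19, and Mest and Mirg overlapped in their Gli3+/+ libraries, and the other 6 pairs did not. Dividing by the longest annotated transcript put Grb10 above Meg3 and Mirg above Mest.

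**Figure D1:**
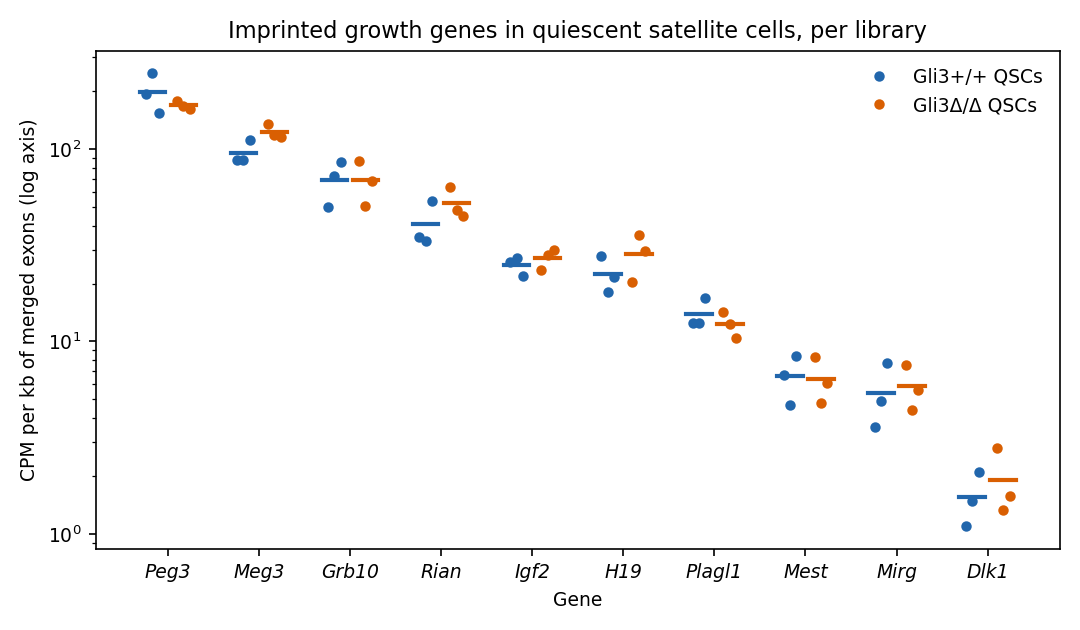
Level of each gene in CPM per kilobase of merged exons (log axis) in the 3 Gli3+/+ (blue) and 3 Gli3Δ/Δ (orange) QSC libraries, one point per library and a line at each mean. Peg3 is highest at 198 and Dlk1 lowest at 1.56 CPM per kilobase in Gli3+/+ cells, and the orange points of Meg3 all lie above its blue points.

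H19 and Igf2 stand next to each other on chromosome 7 of GRCm38. H19 (ENSMUSG00000000031.16, 142575529 to 142578143, minus strand) makes a long noncoding RNA that is known as a restraint on growth. It was at 68.5, 44.4 and 52.9 CPM in the Gli3+/+ libraries and at 50.2, 87.8 and 72.9 CPM in the Gli3Δ/Δ libraries. The upper of the Gli3Δ/Δ values exceeded all controls, but the groups overlapped, since the lowest Gli3Δ/Δ library was below 2 of the controls. The log2 fold change of H19 was 0.35 (SE 0.23, edgeR quasi-likelihood test with Benjamini-Hochberg adjustment over all genes, adjusted p = 0.864), with a 95% interval from -0.18 to 0.87.

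Igf2 (ENSMUSG00000048583.16, 142650766 to 142666816, minus strand) encodes insulin-like growth factor 2, a secreted growth factor that acts through the IGF1 receptor. It was at 148, 155 and 126 CPM in Gli3+/+ and at 134, 161 and 171 CPM in Gli3Δ/Δ libraries. The groups overlapped, and Igf2 was the steadiest of the 10 genes, with its highest library 1.35 times its lowest. Its log2 fold change was 0.12 (SE 0.15, edgeR, adjusted p = 0.931), with an interval from -0.22 to 0.45. Per length, the ratio of Igf2 to H19 was 0.9296, 1.498 and 1.02 in Gli3+/+ and 1.15, 0.788 and 1.01 in Gli3Δ/Δ libraries, so the ratio lay on both sides of 1 in either genotype and its groups overlapped. Between these genes the count table held 1 more gene, Gm33148, and H19 and Igf2 took 99.5% of the CPM of the 3. The table also lists Igf2os, on the opposite strand of Igf2, at a mean of 0.917 CPM over the 6 libraries.

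The Dlk1-Dio3 domain lies on chromosome 12. Dlk1 (ENSMUSG00000040856.17, 109452823 to 109463336, plus strand) encodes a transmembrane protein with EGF repeats that is related to the Notch ligands and is known as a regulator of muscle regeneration. It was the lowest of the 10 genes, at 6.21, 8.36 and 11.9 CPM in Gli3+/+ and 15.9, 7.55 and 8.95 CPM in Gli3Δ/Δ libraries. The groups overlapped, 2 of the 3 Gli3Δ/Δ values lying within the control range, and Dlk1 had the widest range over the 6 libraries, 2.56-fold. Its log2 fold change was 0.29 (SE 0.33, edgeR, adjusted p = 0.925), with an interval from -0.45 to 1.03.

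Meg3 (ENSMUSG00000021268.17, 109541001 to 109571726, plus strand) is the long noncoding RNA at the head of the maternally expressed transcripts. It was at 1584, 1580 and 2016 CPM in Gli3+/+ and at 2453, 2144 and 2078 CPM in Gli3Δ/Δ libraries. All 3 Gli3Δ/Δ libraries were above all 3 controls, the nearest pair being 2078 and 2016 CPM. The log2 fold change was 0.37 (SE 0.15), with an interval from 0.02 to 0.71, and it did not pass the test (edgeR, unadjusted p = 0.0384, adjusted p = 0.665). Groups that do not overlap were found for 13% of all 25093 genes, in either direction, and for 1 of these 10. An unadjusted p under 0.05 was found for 7.11% of all genes and for 1 of the 10. With 1 of 10, neither count is a result about these genes.

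Rian (ENSMUSG00000097451.10, 109603940 to 109661716, plus strand) is the host of small nucleolar RNAs, and Mirg (ENSMUSG00000097391.8, 109729764 to 109749460, plus strand) the host of microRNAs. Rian was at 635, 606 and 983 CPM in Gli3+/+ and at 1156, 875 and 820 CPM in Gli3Δ/Δ libraries. Control library 3 lay among the Gli3Δ/Δ values and the other two controls below them. The log2 fold change was 0.36 (SE 0.22, edgeR, adjusted p = 0.844), with an interval from -0.14 to 0.86. Mirg was at 26.2, 35.9 and 56.2 CPM in Gli3+/+ and at 55.1, 32.0 and 41.0 CPM in Gli3Δ/Δ libraries. Its groups overlapped over nearly their whole range, with a log2 fold change of 0.12 (SE 0.29, edgeR, adjusted p = 0.977) and an interval from -0.54 to 0.77.

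Levels fell along the domain from Meg3 to Mirg. Per length, Meg3 was 2.07 to 2.63 times Rian in the 6 libraries, and Rian was 6.75 to 10.95 times Mirg. Divided by the longest transcript instead, the Gli3+/+ means were 119, 91.6 and 10.3 CPM per kilobase, so the order held and the step from Meg3 to Rian was smaller. Meg3 was 48.3 to 88.8 times Dlk1 in the same libraries. The 2 other protein genes of the domain, named after their values were seen, were near the floor. Rtl1, a gene derived from a retrotransposon, had no counts in 5 of the 6 libraries, and Dio3, which encodes a deiodinase that inactivates thyroid hormone, had a mean of 0.588 CPM over the 6 libraries. From Dlk1 to Dio3 the annotation lists 118 genes, 26 of them in the count table, and Dlk1, Meg3, Rian and Mirg took 98.97% of the CPM of these 26. The small RNA genes inside Meg3, Rian and Mirg share sequence with their hosts, and their counts are uncertain for that reason.

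**Figure D2:**
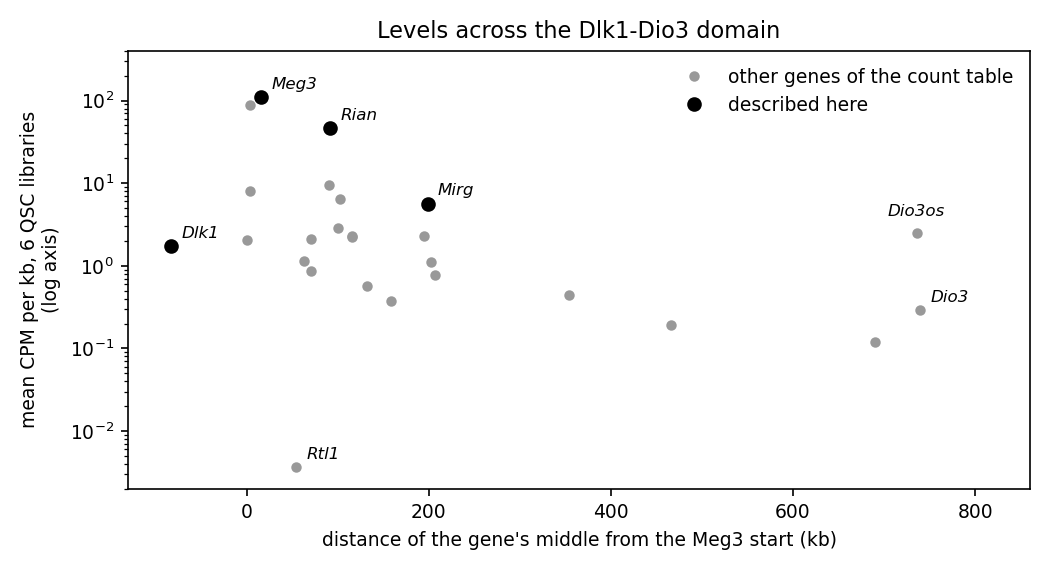
Mean level over the 6 QSC libraries, in CPM per kilobase (log axis), of the 26 genes of the count table from Dlk1 to Dio3 against the distance of each gene's middle from the Meg3 start in kilobases. Black points are Dlk1, Meg3, Rian and Mirg, which take 98.97% of the CPM, and Rtl1 is lowest.

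Peg3 (ENSMUSG00000002265.16, chromosome 7, 6703892 to 6730431, minus strand) encodes a zinc finger protein that is known as a marker of adult stem cells in several tissues. It was at 2573, 3291 and 2061 CPM in Gli3+/+ and at 2368, 2225 and 2160 CPM in Gli3Δ/Δ libraries. All 3 Gli3Δ/Δ values lay inside the range of the controls, whose SD was 618 CPM against 107 CPM. The log2 fold change was -0.23 (SE 0.18, edgeR, adjusted p = 0.895), with an interval from -0.63 to 0.17. Its neighbour Zim1, another imprinted zinc finger gene, was at 411, 535 and 379 CPM in Gli3+/+ and 581, 588 and 462 CPM in Gli3Δ/Δ libraries, again overlapping.

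Plagl1 (ENSMUSG00000019817.18, chromosome 10, 13060504 to 13131694, plus strand) encodes a zinc finger transcription factor that acts on other imprinted genes and on the cell cycle. It was at 97.0, 97.6 and 132 CPM in Gli3+/+ and at 112, 96.5 and 81.9 CPM in Gli3Δ/Δ libraries. The groups overlapped, and the log2 fold change was -0.17 (SE 0.17, edgeR, adjusted p = 0.919), with an interval from -0.57 to 0.23. Mest (ENSMUSG00000051855.15, chromosome 6, 30723547 to 30748465, plus strand) encodes a membrane protein of the hydrolase fold. It was at 26.4, 18.6 and 33.0 CPM in Gli3+/+ and at 32.9, 18.8 and 24.0 CPM in Gli3Δ/Δ libraries. The ranges of Mest were nearly the same in both genotypes, and the log2 fold change was -0.04 (SE 0.26, edgeR, adjusted p = 0.999), with an interval from -0.62 to 0.54. Copg2, which overlaps Mest on the opposite strand, was at a mean of 45.9 CPM over the 6 libraries, and whether the counting used the strand is not given in the sources used here.

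Grb10 (ENSMUSG00000020176.17, chromosome 11, 11930508 to 12038683, minus strand) encodes an adaptor that binds the insulin and IGF1 receptors and damps their signal. It was at 452, 661 and 778 CPM in Gli3+/+ and at 792, 459 and 621 CPM in Gli3Δ/Δ libraries. Both genotypes spanned the same range, and the log2 fold change was -0.01 (SE 0.25), with an interval from -0.57 to 0.54 (edgeR, adjusted p = 1.0).

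Over the 10 genes, no change with Gli3 deletion was detected in QSCs. By edgeR 0 of the 10 were called, calls needing a fold change of at least 1.2 beside an adjusted p under 0.05, where 0.351% of all genes tested were called, 88 of 25093. At an unadjusted p under 0.05 there was 1, Meg3, against 7.11% of all genes. DESeq2 and limma-voom also called 0 of the 10, where they called 384 and 73 of all 25093 genes. The log2 fold change was above 0 for 6 of the genes and below 0 for 4, with a median of 0.12 against -0.03 over all genes. The intervals bound what the libraries can show: a log2 fold change of 1 lies outside the interval of each gene except Dlk1, whose upper bound is 1.03, and a log2 fold change of -1 lies outside all 10 intervals. Changes of 1.2-fold lie inside most of them, so the data do not show that these genes are alike in both genotypes. In sorted pools, fewer cells that express a gene and less RNA per cell cannot be told apart.

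**Figure D3:**
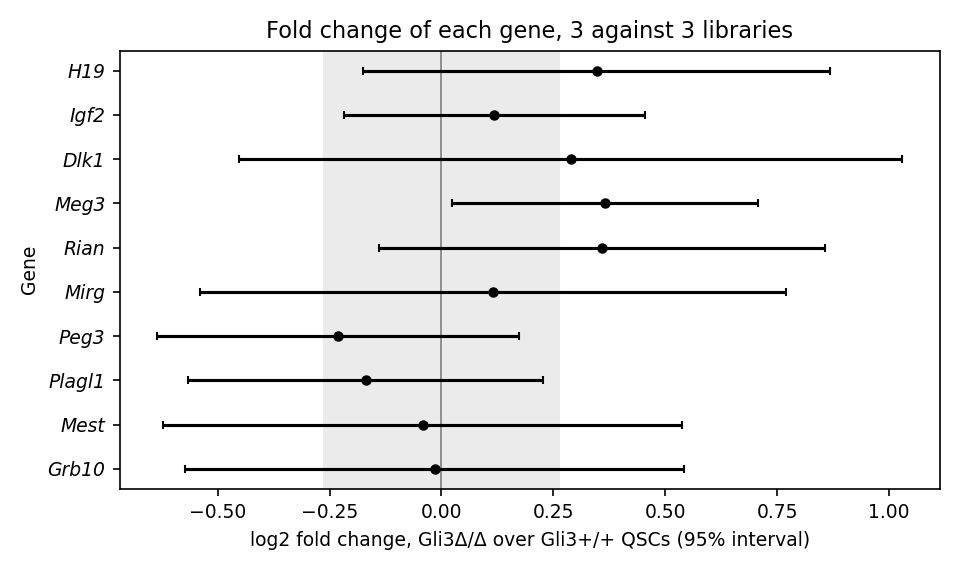
Log2 fold change of each gene, Gli3Δ/Δ over Gli3+/+ QSCs, with its 95% interval from the edgeR fit on 3 against 3 libraries; the grey band marks fold changes under 1.2 in either direction. Each interval except that of Meg3, which runs from 0.02 to 0.71, includes 0.

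Several of the genes were high and low in the same libraries. The 2 highest libraries were Gli3+/+ library 3 and Gli3Δ/Δ library 1 for 6 of the 10 genes, namely Dlk1, Mirg, Grb10, Rian, Mest and Plagl1, and they were the 2 lowest for Igf2. Over the 9592 genes with a mean of at least 10 CPM, these 2 libraries were the highest for 15.9% and the lowest for 14.8%. The pair was singled out after the values were seen, and the genes share libraries, so this is a description. On the log2(CPM + 1) scale, Dlk1 was 0.70 above its mean in Gli3Δ/Δ library 1 and 0.53 under it in Gli3+/+ library 1, at -0.53. Mirg was at 0.49 and 0.47 in the 2 libraries where it was high and at -0.58 in Gli3+/+ library 1. H19 was under its mean in Gli3+/+ library 3 and Gli3Δ/Δ library 1, at -0.20 and -0.28. Peg3 was under its mean in these 2 libraries too, at -0.23 and -0.03, and Meg3 above, at 0.05 and 0.33. The extremes of H19 were 0.52 in Gli3Δ/Δ library 2 and -0.45 in Gli3+/+ library 2. Mural cell markers summed to 428 CPM in Gli3+/+ library 3 and fibro-adipogenic markers to 4511 CPM, the highest of all libraries. Acta2 made up 347 and Col3a1 3624 CPM of these sums. Myh11 at 27.6 and Col1a1 at 332 CPM were also highest in that library. Rgs5, Cspg4, Pdgfrb, Pdgfra, Ly6a, Lum, Dpt and Dcn were not. In Gli3Δ/Δ library 1 the sums were at 187 and 3924 CPM, inside the range of the others. Other marker sums were also highest in Gli3+/+ library 3. They were those of myogenic and quiescence markers at 7521, Schwann cell markers at 99.9 and proliferation markers at 97.7 CPM. Sdc4 made up 2714 CPM of the myogenic and quiescence sum. The sums of endothelial, macrophage, myofiber, erythroid and dissociation markers were not highest there. In Gli3Δ/Δ library 1 the 3 sums were at 5613, 32.3 and 62.1 CPM. The part of any cell type in these deviations was not tested.

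**Figure D4:**
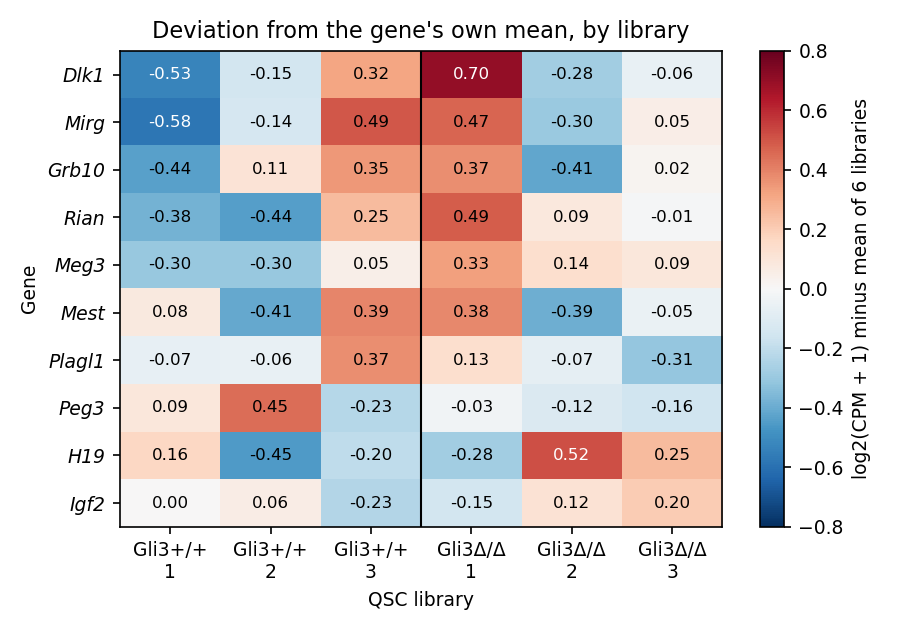
Deviation of each gene in each QSC library from the gene's mean over the 6 libraries, on the log2(CPM + 1) scale, with the 3 Gli3+/+ libraries left of the line and the 3 Gli3Δ/Δ libraries right of it. Dlk1, Mirg, Grb10, Rian, Mest, Plagl1 and Meg3 are above their mean in Gli3+/+ library 3 and Gli3Δ/Δ library 1. Igf2, H19 and Peg3 are below theirs in both.

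Dlk1 had the widest range on this scale, 1.23. Among the 9583 other genes with a mean of at least 10 CPM, those whose levels followed it most closely over the 6 libraries included Prickle1, a planar cell polarity gene, with a Pearson r of 0.98, and Ptprj, a receptor tyrosine phosphatase, also with 0.98. With 6 libraries and so many genes, 8 genes had an r over 0.95. Ptprj ran from 31.7 CPM in Gli3+/+ library 1 to 63.7 CPM in Gli3Δ/Δ library 1, the libraries where Dlk1 was lowest and highest. Prickle1 ran over a narrower range, from 11.6 to 14.8 CPM in the same libraries.

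Other imprinted genes were likewise not called. Of 40 such genes listed, 37 were in the count table and 27 had a mean of at least 1 CPM. None was called by edgeR, against 0.351% of all genes. An unadjusted p under 0.05 was found for 4 of the 37, Nap1l5, Cdkn1c, Peg13 and Airn, against 7.11% of all genes. Groups that do not overlap were found for 5 of the 37, against 13% of all genes, with Cdkn1c, Sgce, Gnas and Trappc9 higher and Nap1l5 lower in Gli3Δ/Δ libraries. Apart from Gnas and Nap1l5, these genes are named after their values were seen. With 37 genes, none of these counts is a result about the list. The median log2 fold change of the 37 was 0.04. Gnas, which encodes the stimulatory G protein subunit upstream of cyclic AMP, was the most abundant at 3797, 3237 and 3671 CPM in Gli3+/+ and 3859, 4314 and 4017 CPM in Gli3Δ/Δ libraries. All Gli3Δ/Δ values of Gnas exceeded all controls, with a log2 fold change of 0.19 (SE 0.13, edgeR, adjusted p = 0.876). Zim1 came next at a mean of 493 CPM over the 6 libraries, with a log2 fold change of 0.30 (SE 0.17, edgeR, adjusted p = 0.828). The lowest p belonged to Nap1l5, a nucleosome assembly family gene, at 49.8, 57.2 and 39.3 CPM in Gli3+/+ and 26.2, 33.9 and 29.8 CPM in Gli3Δ/Δ libraries. All Gli3Δ/Δ values of Nap1l5 were under all controls, and its log2 fold change was -0.70 (SE 0.17, edgeR, unadjusted p = 0.00306, adjusted p = 0.250). DESeq2 called Nap1l5, at an adjusted p of 0.0366, as 1 of the 384 genes it called among all 25093. No other alternative called Nap1l5, their adjusted p ranging from 0.0697 without Gli3+/+ library 3 to 0.710 without Gli3Δ/Δ library 3.

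The IGF axis through which Igf2 and Grb10 act gave 0 calls by edgeR among 15 genes in the table, against 0.351% of all genes. An unadjusted p under 0.05 was found for 2 of the 15, Irs1 and Igfbp3, against 7.11% of all genes. Groups did not overlap for Irs1 and Igf2bp3, higher in Gli3Δ/Δ libraries, and Igfbp2, lower, against 13% of all genes. Igf2bp3 and Igfbp2 were at means of 0.029 and 0.271 CPM. Igfbp3, Igf2bp3 and Igfbp2 are named after their values were seen. With 15 genes, none of these counts is a result about the axis. The median log2 fold change was -0.11, and DESeq2 called 0 of the 15 as well. Igfbp5, a secreted IGF binding protein, was the most abundant at 1586, 848 and 1497 CPM in Gli3+/+ and 1439, 2249 and 1470 CPM in Gli3Δ/Δ libraries. Gli3+/+ library 2 was lowest and Gli3Δ/Δ library 2 highest, and the groups overlapped (log2 fold change 0.39, SE 0.26, edgeR, adjusted p = 0.869). Irs2, an adaptor of the insulin and IGF1 receptors, was at 456, 432 and 661 CPM in Gli3+/+ and 646, 274 and 376 CPM in Gli3Δ/Δ libraries, overlapping too. Irs1, the related adaptor, had the lowest p, at 116, 157 and 127 CPM in Gli3+/+ and 191, 173 and 163 CPM in Gli3Δ/Δ libraries. Its groups did not overlap, and the log2 fold change was 0.40 (SE 0.15, edgeR, unadjusted p = 0.0297, adjusted p = 0.623).

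Genes that keep imprints gave 0 calls by edgeR and by DESeq2 among 12 in the table, where edgeR called 0.351% of all genes. By edgeR 0 had an unadjusted p under 0.05, against 7.11% of all genes. With 12 genes, 1 of them without counts in any QSC library, neither count is a result about these genes. Trim28, the corepressor recruited to methylated control regions by zinc finger proteins, was at 211 to 231 CPM in Gli3+/+ and 217 to 256 CPM in Gli3Δ/Δ libraries. Zfp445, a zinc finger protein that recruits it, was at 192, 194 and 201 CPM in Gli3+/+ and 181, 200 and 164 CPM in Gli3Δ/Δ libraries. Dnmt3a, a DNA methyltransferase, had the lowest p of this list (log2 fold change -0.15, SE 0.16, edgeR, unadjusted p = 0.394, adjusted p = 0.923). Both genotypes overlapped for each of the 3.

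The deposited tables also give the authors' mean normalized count of each gene over all samples of their fit, which sets the QSC level beside that of the whole study, although not by sample. The authors' mean was divided here by the mean normalized count of the 6 QSC libraries. If their mean covers the 12 columns of the count table, a gene with equal levels in QSCs and ASCs gives a ratio near 1 and a gene with no counts in ASCs a ratio near 0.5. The 2 means were scaled separately, so the ratio is a description with no test. A ratio near 0.5 therefore does not show absence from ASCs. By the study's methods, the QSC sort used CD34 and all hindlimb muscles. The ASC sort used VCAM1 in place of CD34, and injured tibialis anterior and gastrocnemius muscles. The part of these differences in the ratios was not tested. Among the 13181 genes with a QSC mean of at least 100, the median ratio was 0.921, the quartiles 0.711 and 1.25, and the 5th and 95th percentiles 0.535 and 2.48. Pax7, the defining gene of satellite cells, had 0.507, the quiescence marker Calcr 0.465 and the proliferation marker Mki67 48.7. Of the 11 myogenic and quiescence markers, 4 were under 0.55 and 1, Myod1 at 2.16, was over 2. Of the 7 macrophage markers, 2 reached a QSC mean of 100 and both were over 2, with Lyz2 at 65.5. Among the 7 fibro-adipogenic markers 3 were over 2 and 1 was under 0.55. All 6 genes listed for the response to dissociation, such as Fos, were under 0.55. The part of other cell types and of dissociation in the ratios was not tested.

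Along this scale the 10 genes fell into unlike positions. Mirg had a ratio of 0.481, Rian 0.488, Meg3 0.516 and Dlk1 0.538, so all 4 genes of the Dlk1-Dio3 domain were under 0.55, as were 6.34% of the 13181 genes. Peg3 had 0.579, Plagl1 0.610, Igf2 0.632 and Grb10 0.772. H19 and Mest were the exceptions, with ratios of 4.04 and 5.90, above 2 as were 7.85% of all genes. For H19 the authors' mean was 13217 normalized counts against 3274 in QSCs, and for its neighbour Igf2 it was 4914 against 7771. For Mest the authors' mean was 7886 against 1336. Of the 26 other imprinted genes over the minimum, 4 had a ratio under 0.55, Airn at 0.445, Nap1l5 at 0.452, Zim1 at 0.478 and Zrsr1 at 0.545, and 1 was over 2, Cdkn1c, a cell cycle inhibitor, at 2.37. Airn, Zrsr1 and Cdkn1c are named here after their values were seen.

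**Figure D5:**
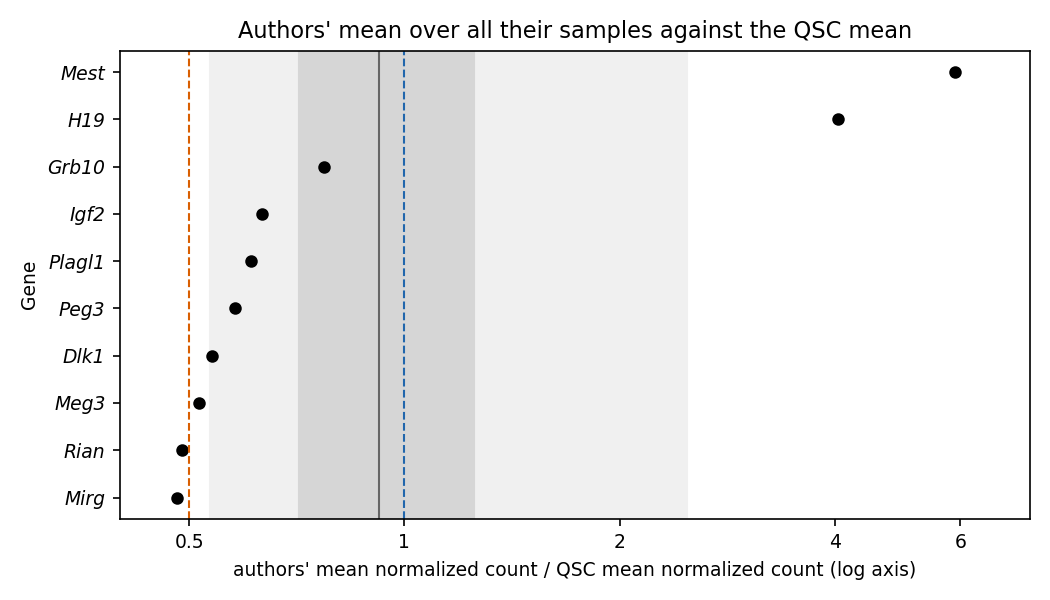
Ratio of the authors' mean normalized count over all their samples to the QSC mean (log axis) for each gene, one point per gene. Dashed lines mark 0.5 and 1, the dark band the quartiles and the light band the 5th to 95th percentiles of 13181 genes, with their median as a grey line; the 4 genes of the Dlk1-Dio3 domain lie near 0.5, and H19 and Mest at 4.04 and 5.90.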

How the data were processed

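Of 12 samples, the 6 QSC libraries were used. Per the labels and the study's methods, the authors quantified reads with salmon against GRCm38 (GENCODE vM19) and summarised them to genes with tximport, keeping genes with at least 5 reads in at least 2 samples. They deposited estimated counts without normalization, of which 49.2% were not whole (tolerance 1e-06); these were rounded. The authors also deposited, in 4 comparison tables, a mean signal per gene (counts divided by DESeq2 size factors, averaged over their samples), which is used as the authors' mean, and their own fold changes and p-values, which were not used. The count table has 6 columns that matched no label and were used in no step, so the planned ASC comparisons could not be fitted.

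Counts were tested with edgeR 4.0.16 (R 4.3.3; TMM, quasi-likelihood, Benjamini-Hochberg over 25093 genes, no further filter). The study's thresholds define a call, a fold change of at least 1.2 beside an adjusted p under 0.05. Each SE is an approximation, the absolute log2 fold change divided by the square root of the quasi-likelihood F of the same fit. The 95% intervals were built from this SE with a t quantile. The script was tested on simulated data. Alternatives to the test were DESeq2 1.42.0 and limma 3.58.1 (voom with quality weights). Others were scaling by DESeq2 size factors, 2 filters (filterByExpr, or a minimum of 10 counts in all libraries), a replicate block, calls without the fold minimum, and fits without each library in turn. Totals were 39556784 to 65750131 counts. Replicates of a genotype differed by 59.4 to 171 times the chi-square per degree of freedom of counting noise, so none was a repeat deposit.

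The members and lists were chosen with earlier results of these data known. Named are the 10 members, from each list without a call the 2 genes with the highest mean CPM and the 1 with the lowest unadjusted p, and the 3 genes most correlated with the member of widest range, of which 1 is not reported here. Genes outside this rule, such as markers and neighbours, were named after their values were seen. Positions and lengths were taken from GENCODE vM21 (GRCm38), where 96.3% of identifiers carry the same version; microRNA and promoter sequences come from RefSeq.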

Additional observations from a re-analysis of the deposited data

How the results depend on the processing

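The count of imprinted growth genes called stayed at 0 under each of the 13 alternatives. Over all genes the count moved from 88 to 384 with DESeq2, to 48 with at least 10 counts in every library (16759 genes tested), and over the fits without each library it ranged from 58 to 103, the lowest without Gli3Δ/Δ library 3; the cause was not tested. The median log2 fold change of all genes lay between -0.041 and -0.0031 in every fit. The sign of 4 uncalled fold changes turned. With limma-voom Mest was at 0.0034 and Grb10 at 0.067. Leaving out 1 library gave -0.28 to 0.17 for Mest, -0.22 to 0.17 for Grb10, -0.11 to 0.46 for Mirg and -0.10 to 0.56 for Dlk1, which was at -0.10 without Gli3Δ/Δ library 1. Mirg was at -0.11 without Gli3+/+ library 1 and without Gli3Δ/Δ library 1. Without Gli3+/+ library 3, Mest and Grb10 were both at 0.17; without Gli3Δ/Δ library 2 they were at 0.13 and 0.16, and Grb10 was at 0.03 without Gli3+/+ library 2. H19, Igf2, Meg3, Rian, Peg3 and Plagl1 kept their sign in all alternatives, but without 1 library the values ran from 0.15 (without Gli3Δ/Δ library 2) to 0.54 for H19, 0.03 (without Gli3+/+ library 3) to 0.21 for Igf2, 0.29 to 0.49 for Meg3, 0.19 (without Gli3Δ/Δ library 1) to 0.62 for Rian, -0.38 to -0.04 (without Gli3+/+ library 2) for Peg3 and -0.28 to -0.01 (without Gli3+/+ library 3) for Plagl1. The adjusted p of Meg3 ranged from 0.266 (limma-voom) to 0.995. The number of the 10 genes with an unadjusted p under 0.05 was 2 with limma-voom and 3 without Gli3+/+ library 3. In the other alternatives it was 0 or 1.

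Labels give both genotypes replicate numbers, but same-numbered libraries did not deviate together (correlations of -0.28, -0.02 and -0.06). The highest correlations, 0.33 and 0.27, joined different numbers. The deviations are from means of 3 libraries, so the correlations are tied to each other and cannot decide whether the numbers mark pairs. The main fit did not use the number as a pairing. With the replicate block 79 genes and 0 of the 10 were called.

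Divided by the longest annotated transcript instead of merged exons, Gli3+/+ levels were 304 for Peg3, 125 for Grb10, 119 for Meg3, 91.6 for Rian, 30.3 for Igf2, 20.7 for Plagl1, 10.3 for Mirg and 9.76 CPM per kilobase for Mest, each moved by more than its SD. H19 at 24.2 and Dlk1 at 1.90 moved by less than theirs. That levels rose is by construction, since no transcript is longer than the merged exons. ASC alternatives could not be fitted.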
